A study of Komagataella pastoris with 3 samples.

Results

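The genes described here had a transient low point in their messenger RNA in the middle of 3 sampled times of a yeast culture. They fell by 2-fold or more between 24 and 36 h, rose by 2-fold or more between 36 and 48 h, and reached 1 FPKM in some library. FPKM counts a gene's fragments relative to its length and to all mapped fragments of that library, and each 2-fold step was measured as a difference of 1 in log2(FPKM + 1). Of 5040 genes in the table, 5028 reached 1 FPKM in a library, and 132 of these, 2.63%, met both conditions. The organism was Pichia pastoris GS115, labelled wild-type, a methylotrophic yeast strain used to produce recombinant proteins. A small inoculum from logarithmic phase was grown at 30°C with shaking in YPD, which holds yeast extract, peptone and dextrose, and cells were collected after 24, 36 and 48 h with 1 library per time. The 3 groups therefore differ in culture time and share strain, genotype and medium. The labels do not say whether the times came from 1 flask or from several.

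A yeast culture in glucose medium first grows on the sugar and later on other carbon sources, and then slows as nutrients run out. Many transcripts follow such changes in one direction only, while a transcript can also fall and return when a phase is passed through. FPKM is a relative measure, so that a gene's value falls when other transcripts take a larger part of the library, even if its own number of molecules per cell is the same.

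All values that follow rest on 1 library per time. No replicate error exists, no p-value is given, and each difference is one between 2 libraries, whose depth is unknown because the values were deposited already normalized. The libraries of 24, 36 and 48 h summed to 871921, 785727 and 760684 FPKM, and the median gene stood at 54.3, 48.2 and 51.4 FPKM. The 24 to 36 h and 36 to 48 h changes chose the genes and share the 36 h library, so both are described and not tested. A chance deviation of that 1 library would move both changes of a gene in the way the rule selects. The table names genes only by locus tag, and none of its tags matched the reference table at hand, which is of another Komagataella species, so no roles can be given and no sequence is shown. The 17 gene lists drawn up for this yeast, from ribosomal proteins to methanol use, had 0 members in the table for the same reason.

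The low point lay at mostly modest levels. The 132 genes had between 4.39 and 553 FPKM at 24 h, with a median of 49.2. Their levels at 36 h ran from a value listed at 0 to 212 FPKM, with a median of 12.2. By 48 h they lay between 3.18 and 975 FPKM, with a median of 35.3. None reached 1000 FPKM in any library, while 237 of all genes examined did. In the 24 h library 106 of the 132 (80.3%) had between 10 and 100 FPKM, 20 (15.2%) had at least 100 and 6 (4.55%) had under 10. Over all genes examined these shares were 67.5%, 29.0% and 3.52%. At 36 h 51 of them, 38.6%, were under 10 FPKM, compared with 6.48% of all genes, a contrast that the rule itself favours.

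**Figure D1:**
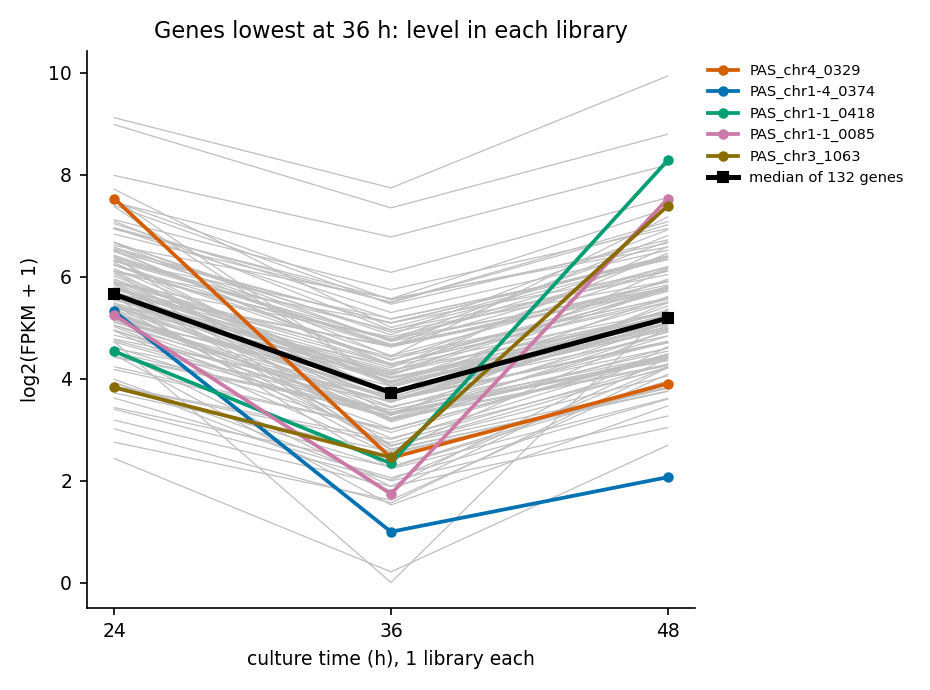
Level of each of the 132 genes lowest at 36 h as log2(FPKM + 1) on the vertical axis, against culture time in hours, with 1 library per time. Grey lines are single genes, coloured lines the 5 named locus tags, and the black line is the median of the 132 genes, whose FPKM was 49.2, 12.2 and 35.3 at the successive times.

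Ranked by FPKM among the genes examined, the median member moved from place 2744 in the 24 h library to 4577 by 36 h and back up to 3208 by 48 h. The ranks come from the values that chose the genes, so their low point at 36 h follows from the rule. Together the 132 genes made up 1.02%, 0.318% and 1.07% of all FPKM at the successive times. These shares were spread over many genes, as the 10 highest members held between 29.0% (24 h) and 36.8% (48 h) of the group's summed FPKM. The single highest member alone gave 12.0% of the sum at 48 h. Members kept much of their order of abundance through the low point. Across the 132 genes, which share libraries and are not replicates, Pearson's r between log2 levels was 0.81 for 24 and 36 h, 0.78 for 36 and 48 h and 0.65 for 24 and 48 h. The rule bounds how far each gene moved in 1 direction, which by itself gives levels that run together.

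With the deposited scaling the fall was larger than the rise in 87 of the 132 members, 65.9%, while 57.8% of all genes were lower at 48 h than at 24 h. With median-of-ratios scaling the fall was larger in 69 of the 132, and with trimmed-mean scaling in 67, against 50.7% and 50.2% of all genes lower at 48 h. From 24 to 36 h the median change was -1.71, with an interquartile range from -2.13 to -1.37 and extremes of -5.08 and -1.01. From 36 to 48 h the median change was 1.39, with an interquartile range from 1.15 to 1.63 and extremes of 1.00 and 5.94. The medians over all genes examined were -0.21 and 0.03. A fall of at least 4-fold was seen in 39 members, and 11 of these fell at least 8-fold. A rise of at least 4-fold was seen in 19, and 4 of these rose at least 8-fold. Over all genes 5.19% fell and 2.82% rose by at least 4-fold, while 0.815% fell and 0.636% rose by at least 8-fold. The rule, however, admits no member without a fall and a rise. As plain FPKM ratios without a pseudocount, over the 131 members not listed at 0, the median was 3.44 for 24 h over 36 h and 2.77 for 48 h over 36 h.

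Both limits of the rule cut through a continuous range. The 3 smallest falls inside it were 1.01, 1.02 and 1.02 on the log2(FPKM + 1) scale, and the 3 largest falls just outside, among genes that met the other condition, were 0.99, 0.99 and 0.99. The smallest rises inside were 1.00, 1.00 and 1.01, and the largest outside were 1.00, 0.99 and 0.98. Within 0.1 of the limit, 10 members lay inside and 11 genes outside for the fall, and 21 members inside and 23 genes outside for the rise. One of the genes just outside went from 40.9 to 20.1 and then 44.8 FPKM, beside a member just inside with 49.6, 24.0 and 71.8 FPKM. Without a size limit, 1441 of the 5028 genes, 28.7%, had their lowest value in the 36 h library, 1498 in the 24 h library and 2088 in the 48 h library. The 1441 became 1139 with median-of-ratios scaling and 1232 with trimmed-mean scaling of the libraries.

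The number of genes with the low point was close to what the separate intervals give. By 36 h 973 genes, 19.4% of those examined, had fallen at least 2-fold, and 132 of the 973 then rose at least 2-fold, a share of 13.6%. Of all genes examined 13.5% rose at least 2-fold from 36 to 48 h, and of the 4055 genes without the earlier fall 13.5% did. Pooled over all levels, an earlier fall was thus not accompanied by a higher share of later rises with the deposited scaling. This did not hold among genes of similar 24 h level. In 10 equal classes from low to high, fallen genes rose more often than the others in classes 4 to 9, and barely so in class 2. They rose less often in classes 1, 3 and 10. Among genes of similar 24 h level, a low 36 h value favours both the fall and the later rise. The class pattern is therefore a description and was not tested. The pooled share with median-of-ratios scaling was 15.5% of those that fell and 13.5% of all, and with trimmed-mean scaling 16.3% and 14.3%. With a pseudocount of 0.1 it was 15.4% and 14.2%, and with a pseudocount of 10 it was 5.86% and 9.31%. The order of these pooled shares thus depends on the scale. Seen from the other side, 19.4% of the 679 later risers had fallen first, equal to the share of all genes that fell.

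**Figure D2:**
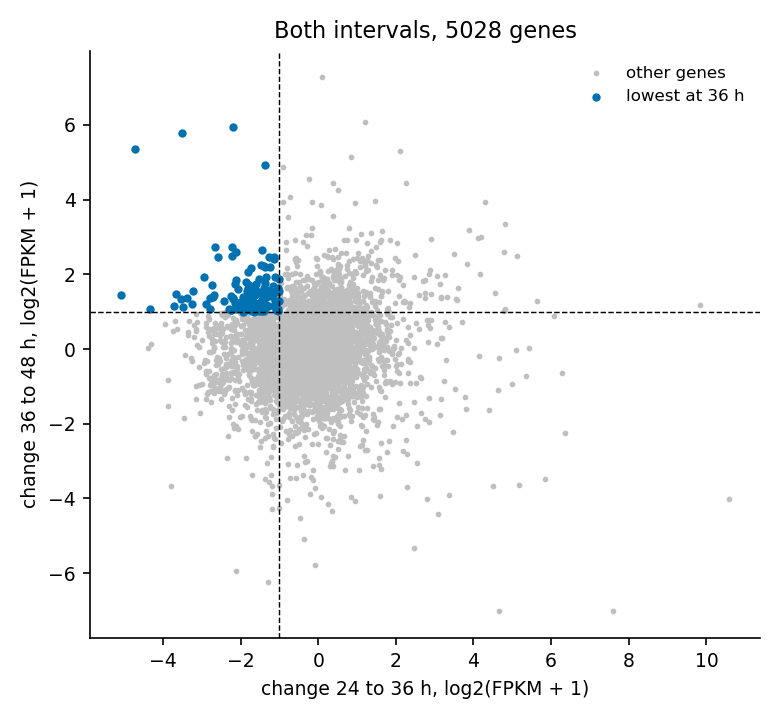
Change from 36 to 48 h on the vertical axis against change from 24 to 36 h on the horizontal axis, both as differences of log2(FPKM + 1), for 5028 genes. Blue points are the 132 genes lowest at 36 h, set apart by the dashed limits at -1 and 1. Rises of at least 8-fold were seen in 4 members, which stand above the others, and in 0.636% of all genes.

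Deeper falls were not followed by larger rises in a graded way. Genes that fell by 1 to 1.5 on the log2 scale later rose at least 2-fold in 10.04% of 478 cases. For falls of 1.5 to 2 the share was 19.2% of 234. Among the 220 genes that fell 4- to 8-fold it was 12.7%, and among the 41 that fell at least 8-fold it was 26.8%, or 11 genes. Within the 132 members, fall and rise had a Pearson's r of 0.19 and a Spearman's rho of -0.06. The rule cuts off both changes and both contain the 36 h value, so these coefficients describe the selected genes only. The median rise was 1.45 in the 48 members with the smallest falls and 1.38 in the 11 with falls of at least 8-fold. The median change from 24 to 48 h was 0.22 in those 48 members and -2.19 in those 11, of which 9 ended below and 2 above their 24 h level. That change contains the fall by which the members were grouped, so a lower value after deeper falls follows where the rises are similar.

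The size of the return by 48 h divided the members. The rule does not set the direction of the 48 h against 24 h difference, but that difference is the sum of the fall and the rise it selects, which draws it toward 0. At 48 h 105 of the 132 genes were within 2-fold of their 24 h level, 20 lay below that band and 7 above it. Over all genes examined these shares were 53.8% within 2-fold, 28.0% lower and 18.2% higher, against 79.5%, 15.2% and 5.30% of the members. A difference under 0.5 on the log2 scale was seen in 65 members, 49.2%, against 29.9% of all genes. The median difference was -0.26 for the members and -0.25 for all genes, with an interquartile range from -0.81 to 0.22 for the members and from -1.10 to 0.62 over the whole table. Under median-of-ratios scaling the members' median was -0.034 and 12 were higher and 15 lower. Under trimmed-mean scaling it was -0.014, with 13 higher and 13 lower, against 20 lower and 7 higher as deposited. All genes shifted likewise, from 1409 lower and 914 higher to 1137 and 1115 under the first of these scalings and to 1108 and 1137 under the second.

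The mirror group, 81 genes that rose at least 2-fold by 36 h and fell back at least 2-fold by 48 h, offers a comparison with the opposite shape. In it 51 genes, 63.0%, were within 2-fold at 48 h against 24 h, 16 lower and 14 higher. Its median difference was -0.17 with an interquartile range from -0.92 to 0.55. Among the 690 genes that fell by 36 h and then stayed within 2-fold, 19.4% were within 2-fold of the 24 h level at 48 h, and among the 417 that held until 36 h and then rose, 21.6%. A fall followed by a rise tends by its construction to end nearer the start than a fall alone, and no test of the difference between these groups is possible with 1 library per time.

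**Figure D3:**
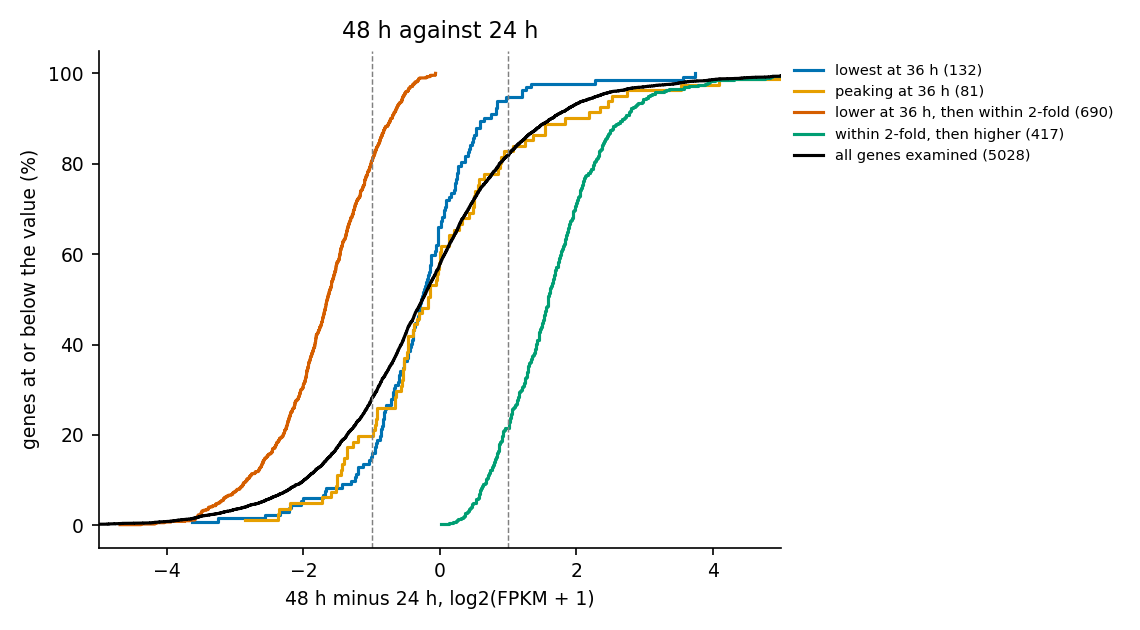
Cumulative share of genes, in percent, on the vertical axis against the difference of log2(FPKM + 1) between 48 h and 24 h on the horizontal axis, drawn from -5 to 5, for 4 groups by profile and for all 5028 genes. Dashed lines mark 2-fold; 105 of the 132 genes lowest at 36 h lie between them, against 53.8% of all genes.

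The 20 members that at 48 h were still 2-fold or more below their 24 h level were among those with the larger falls. Their median level went from 62.7 to 5.44 and then 16.6 FPKM, with a median fall of -2.91 and a median rise of 1.26. Every one of these 20 had fallen by at least 2.13 on the log2 scale, as a net loss of 1 after a rise of at least 1 requires a fall of at least 2. PAS_chr4_0329, on chromosome 4 by its tag, started at 184 FPKM, was down to 4.44 FPKM by 36 h and ended at 13.95 FPKM. Its change of -5.08 from 24 to 36 h was the largest fall of all 5028 genes examined on the log2(FPKM + 1) scale. This order depends on the pseudocount, as a member listed at 0 at 36 h changed by -4.72, a size that the pseudocount sets. PAS_chr4_0329 regained a small part of its fall, 1.46 on the log2 scale, and ended at -3.63 against 24 h. PAS_chr1-4_0374, on chromosome 1 by its tag, went from 38.9 FPKM at the first time to 0.993 FPKM at the second and 3.18 FPKM at the last. This gene fell by 4.32 on the log2 scale and rose by 1.07, just past the limit, and with a pseudocount of 10 its rise was 0.26. With that pseudocount the rise of PAS_chr4_0329 was 0.73. Both genes were thus by far highest at 24 h, and their rise took place at a low level.

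The 7 members that overshot their 24 h level by 2-fold or more started low, between 5.73 and 40.5 FPKM. Their median went from 13.2 to 4.05 and then 95.0 FPKM. PAS_chr1-1_0418, on chromosome 1 by its tag, stood at 22.1 FPKM, dropped to 4.05 FPKM by 36 h and reached 309 FPKM by 48 h. Its rise was 5.94 on the log2(FPKM + 1) scale, and its place among the genes by FPKM moved from 4283 to 4948 and then to 414. PAS_chr1-1_0085, also on chromosome 1 by its tag, read 37.0 FPKM, then 2.33 FPKM at the low point, and 183 FPKM at the end. It fell by 3.51 and rose by 5.78 on the log2 scale, ending 2.27 above its 24 h level. These were the largest rises among members with no value listed at 0, and their order turned with the scale, as the plain FPKM ratio of 48 h over 36 h was 78.3 for PAS_chr1-1_0085 and 76.3 for PAS_chr1-1_0418. PAS_chr3_1063, on chromosome 3 by its tag, read 13.2 FPKM first, 4.48 FPKM at 36 h and 166 FPKM in the last library. Its fall of -1.37 was modest, its rise was 4.93, and at 48 h it lay 3.56 above 24 h. With a pseudocount of 10 its fall was -0.68, short of the limit. In these 3 genes the 48 h library held by far the highest value, and the low point at 36 h preceded a steep late rise.

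A fall and a rise of at least 4-fold each were found in 8 members, 0.159% of all genes examined. Of the 261 genes that fell at least 4-fold, 3.1% then rose at least 4-fold, close to the 2.8% of all genes that did. Besides PAS_chr1-1_0418 and PAS_chr1-1_0085, the 8 included 1 gene listed at 0 at 36 h, with 25.3 FPKM at 24 h and 40.2 FPKM at 48 h. That gene ended 0.65 above its start on the log2 scale, within 2-fold. The remaining 5 also came back to within 2-fold of their start. One had 76.4, 11.9 and 69.9 FPKM at the successive times, and another 22.5, 2.69 and 23.6 FPKM. A further gene had 100.2, 20.6 and 143 FPKM. The other two stood at 14.2, 2.48 and 20.2 FPKM and at 4.39, 0.156 and 5.45 FPKM. The differences between 48 h and 24 h of these 5 ran from -0.13 to 0.51 on the log2 scale. In 6 of the 8 the 36 h value was under 5 FPKM, where an unknown number of fragments lies behind the value.

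At the other end of abundance, 25 members reached 100 FPKM in at least 1 library, and 11 had at least 100 FPKM at both 24 and 48 h. These were 18.9% and 8.33% of the members, against 41.7% and 17.0% of all genes examined. The most abundant member had 553, 212 and 975 FPKM at the successive times. The next had 504, 162 and 442 FPKM. One more had 252, 109 and 291 FPKM. These were the only 3 members with at least 100 FPKM at 36 h, or 2.27%, against 26.9% of all genes, a contrast that the rule itself favours. Their changes lay between -1.63 and -1.21 in the first interval and between 1.41 and 2.19 in the second. Their low point was thus measured above the level of the median gene of that library, unlike that of most members. By tag all 3 lie on chromosome 2.

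Placed by mean level, members were more frequent among low genes. When the 5028 genes were divided into 10 equal classes by their mean log2 level over the 3 libraries, 77 of the 132 fell in the lowest 3 classes, 47 in the middle 4 and 8 in the highest 3. These counts were 5.10%, 2.34% and 0.530% of the genes of those classes. The 81 genes that peaked at 36 h went the other way, with 8, 24 and 49 genes, or 0.530%, 1.19% and 3.25%. A low value at 36 h lowers the mean that places a gene, and a peak raises it. Placed by the 24 h level alone, 38 members fell in the lowest 3 classes, 73 in the middle 4 and 21 in the highest 3, or 2.52%, 3.63% and 1.39% of the genes there. By the 48 h level the shares were 3.25%, 3.18% and 1.26%. The low share among the highest 3 classes was thus seen with each of the 3 placings, while the rise toward the lowest classes was not. With a pseudocount of 10, which by construction shrinks the changes of low genes, 41 genes were left, of which 9 were in the lowest 3 classes by mean level and 7 in the highest 3.

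**Figure D4:**
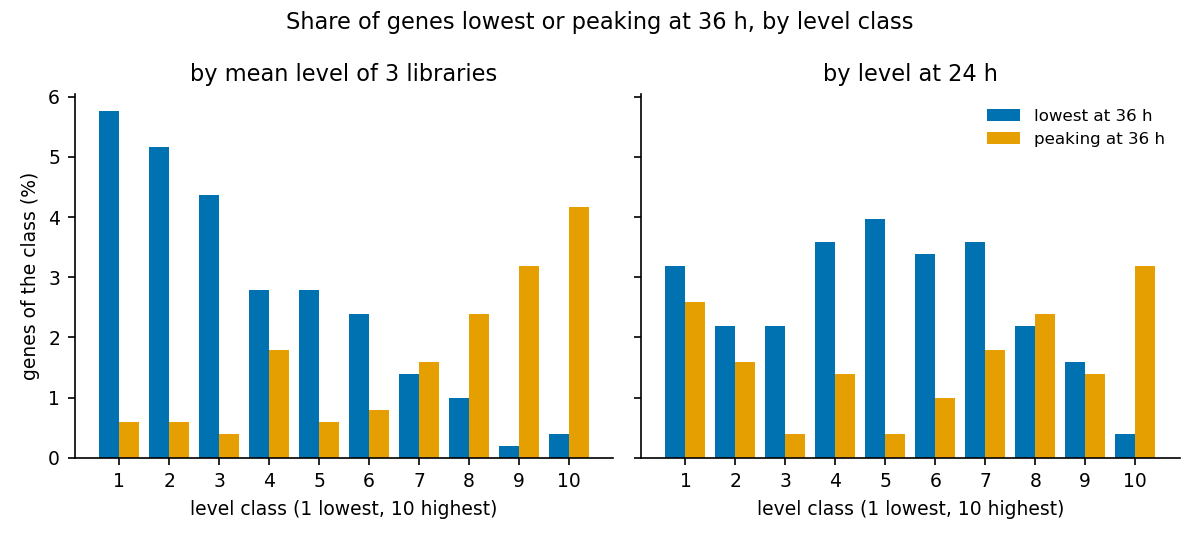
Percent of the genes of each level class that were lowest at 36 h (blue) or peaked at 36 h (orange), for 10 equal classes by mean log2 level of the 3 libraries (left) or by the level at 24 h alone (right). On the left the lowest class holds 5.77% and the highest 0.398% of genes lowest at 36 h; on the right the largest share, 3.98%, is in class 5.

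Among genes abundant at 24 h, a level that enters the fall, a return was rarer than among the others. In the highest 3 classes by 24 h level 432 genes fell at least 2-fold by 36 h, and 4.86% of them then rose at least 2-fold. In the middle 4 classes 349 fell and 20.9% of them rose, and in the lowest 3 classes 192 fell and 19.8% rose. By mean level the shares were 3.20% in the highest 3 classes, 15.9% in the middle 4 and 18.0% in the lowest 3. By the 48 h level, which enters the rise, they were 11.9%, 19.6% and 10.1%, so the order depended on the placing. A gene low in the 24 h library rose more often in any case. In the lowest class by 24 h level 30.2% of the genes that fell later rose, compared with 31.6% of those that did not fall. In class 5 the shares were 27.8% and 11.4%, and in the highest class 1.08% and 4.09%. Genes that had fallen rose more often than the others in classes 2 and 4 to 9, though in class 2 with 18.0% against 17.9%, and less often in classes 1, 3 and 10. No error can be attached to these shares, which in class 5 rest on 20 of 72 genes. The 36 h value enters both the fall and the rise, so the shares by class are a description.

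The levels from which members started also differed from those of genes with related courses. The 690 genes that fell and then held had medians of 83.8, 27.5 and 29.3 FPKM at the successive times. The 151 genes that fell in both intervals had medians of 156, 54.5 and 14.05 FPKM. The 417 genes that held and then rose had 33.1, 33.4 and 97.3 FPKM. With 49.2, 12.2 and 35.3 FPKM, the members started below both falling groups and reached a lower level at 36 h than any of these groups. The groups are defined by the same changes, so these medians are a description.

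By the prefix of their tags, chromosome 1 held 53 members, or 3.66% of its 1449 genes examined. Chromosome 2 held 26, or 1.96% of 1328 genes, and chromosome 3 held 31, or 2.64% of 1174. On chromosome 4 there were 21, or 2.22% of 946, and 1 more member had the tag of an unplaced fragment. Chromosome 1 thus held 40.2% of the members and 28.8% of the genes. Positions in base pairs were not used here.

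Consecutive tags, which as a rule number neighbouring genes, were both members in 7 cases. Of 252 examined tag positions next to a member in number, 14 held members, or 5.56%, while members made up 2.63% of all genes examined. The 14 count each of the 7 pairs from both sides, and a tag between members can be counted more than once among the 252. There were 4 such pairs on chromosome 1 and 3 on chromosome 2. In one pair the first gene had 100.2, 20.6 and 143 FPKM at the successive times, and its neighbour 175, 66.7 and 186 FPKM. In another the genes had 92.2, 25.7 and 82.5 FPKM and 31.4, 6.12 and 17.4 FPKM. The most abundant member was in a pair too, and its neighbour had 46.4, 16.2 and 37.9 FPKM. Genes of a pair differed up to 11.9-fold in FPKM at 24 h, while their shared shape follows from the rule. Whether counting used strand is not given in the sources used here, so reads of overlapping neighbours could not be told apart, and their part in these pairs was not tested.

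The consecutive tags of members also included 235 genes that were not members. Their median change was -0.23 from 24 to 36 h and 0.14 from 36 to 48 h, against -0.18 and 0.007 for all 4896 genes that were not members. By 36 h 40 of them, 17.0%, had fallen at least 2-fold, compared with 17.2% of all non-members. From 36 to 48 h 34 of them, 14.5%, rose at least 2-fold, compared with 11.2%. Their lowest value was in the 36 h library, without a size limit, for 80 genes, 34.0%, against 26.7% of all non-members. The neighbours' median level at 24 h, 52.5 FPKM, was near that of all non-members, 54.8 FPKM.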

How the data were processed

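Per the file headers, the authors' deposited values are in FPKM, with 1 column for each library and nothing pooled. Per the submitters' processing notes, CASAVA and HISAT2 2.1.0 were used. Of the quantifier, genome build, annotation, strandedness and filters, the sources used here say nothing. Columns were matched to times by the codes in the sample titles. Genes with at least 1 FPKM in any library were kept, which removed 12. Changes are differences of log2(FPKM + 1), which understate those of low genes. The 2-fold rule is one of size and not a test.

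The members and lists were chosen with earlier results of these data known. With no gene names, the tags named are the 2 largest falls to 36 h, the 2 largest rises to 48 h, and the 2 highest and 2 lowest for 48 h against 24 h, among members with at least 10 FPKM at 24 or 48 h and no value listed at 0, 5 tags in all. Other genes given by their values were chosen after these were seen. Alternatives were pseudocounts of 0.1 and 10, no filter or one at 10 FPKM, median-of-ratios or trimmed-mean scaling (with 30% of ratios and 5% of levels trimmed at either end), as well as a 4-fold rule. Python 3.11.15, numpy 2.4.6, pandas 2.3.3 and matplotlib 3.10.9 were used.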

Additional observations from a re-analysis of the deposited data

How the results depend on the processing

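No paired analysis was possible because there was 1 library per time, and for the same reason no replicate could be left out. The number of genes lowest at 36 h was 132, 113 with median-of-ratios scaling, of which all 113 were among the 132, 123 with trimmed-mean scaling, of which 113 were, and 155 with a pseudocount of 0.1. It was 41 with a pseudocount of 10 and 8 with the 4-fold rule, both stricter by construction. The members' median change from 24 to 36 h, -1.71, became -1.48 and -1.51 with median-of-ratios and trimmed-mean scaling, which shifted the median of all genes from -0.21 to 0.02 and -0.004, -1.26 with a pseudocount of 10 and -2.41 for the 8 genes of the 4-fold rule. From 36 to 48 h it was 0.94 with a pseudocount of 10 and 2.74 for those 8. For 48 h against 24 h it went from -0.26 to -0.034 and -0.014 with the 2 scalings and to 0.49 for the 8 genes, a change of sign with a change of genes. By 48 h 7 members lay above the 2-fold band around their 24 h level. This number was 12 and 13 with the 2 scalings and 4 with a pseudocount of 10. Below that band lay 20 members, and 13 with trimmed-mean scaling. Of the 8 genes of the 4-fold rule, 2 lay above a 4-fold band and 0 below it. For these 8 genes a 2-fold band gives the same counts. Requiring 10 FPKM at both 24 and 48 h, chosen after seeing the data, left 124 genes, and leaving out genes listed at 0 left 131. None of 60 values of the 5 named tags changed sign under the pseudocounts and scalings, and 46 moved by 0.1 or more. Every value is limited by the missing replicates and the unknown depth, which weighs most on values of a few FPKM.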
